A study of Mus musculus with 2 samples.

Results

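The miRNA cluster in an intron of Sfmbt2 was examined in heart tissue of 2 male mice of the strain B6CASTF1/J, aged 4 days, an F1 cross of C57BL/6J and CAST/EiJ. Its members are the miRNA genes that GENCODE M21 places on chromosome 2 of mm10, plus strand, with a start between 10460000 and 10525000. This rule took 119 of the 2202 miRNA genes in the count tables, and it used no measured value. Each animal gave a single microRNA-seq library, replicate 1 from male 03 and replicate 2 from male 04, and both form 1 group with no treatment. The libraries carry the same donor identifier, and the labels number them as biological replicates 1 and 2. They were taken as separate animals from the labels male 03 and male 04. If they were not, the spread between them is technical.

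MicroRNAs are short RNAs cut from hairpin precursors, and each guides the silencing of mRNAs that pair with its seed near the 5′ end. Sfmbt2 encodes a Polycomb group protein and is an imprinted gene, known for expression from the paternal allele in the placental lineage. The intron with the miRNA genes is a rodent feature, built from tandem copies of hairpins of the Mir297, Mir466, Mir467 and Mir669 families. One of its miRNAs, miR-669a, has been described as restraining the skeletal muscle factor MyoD in cardiac progenitor cells. The tables do not separate the alleles, so imprinting itself was not measured.

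All 119 hairpins lay in intron 10 of the Sfmbt2 transcript Sfmbt2-201, which runs from 10461473 to 10523944 and is 62472 bases long. They spanned 53.0 kb, from Gm22072 at 10465287 to the end of Mir669h at 10518279. The rule's limits cut through no array of hairpins: the nearest annotated miRNA genes outside were Gm23963, 1224 kb before the cluster with 0 counts in each library, and Mir511, 3743 kb after it with 20 and 59 counts. By name, 29 members belonged to Mir669, 23 to Mir466, 14 to Mir467 and 5 to Mir297. The other 48 carried only a Gm number.

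Mature sequences of these families are shown because they are built of the same short repeats, which bears on how reads can be assigned. RefSeq's table of mature miRNAs (GRCm38.p6) matched 0 of the 119 members and 8 of the 10 genes of the same families elsewhere in the genome. The 5 below come from those relatives, 2 each of Mir466 and Mir467 and 1 of Mir669, written 5′ to 3′ with the seed (bases 2 to 8) in capitals.
mmu-miR-466i-3p: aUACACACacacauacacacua
mmu-miR-466k: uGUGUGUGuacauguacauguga
mmu-miR-467g: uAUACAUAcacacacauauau
mmu-miR-467h: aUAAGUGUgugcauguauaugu
mmu-miR-669n: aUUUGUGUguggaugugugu
They are encoded at chr13:17747552-17747573, chr3:85467396-85467418 and chr9:115381898-115381919 on the plus strand for miR-466i-3p, miR-466k and miR-467h. Those of miR-467g and miR-669n are at chr5:34732872-34732892, minus strand, and chr3:115979905-115979924, plus strand. The 8 relatives have 8 different seeds, yet 79.0% (miR-669n) to 100% (miR-467g and miR-466q) of neighbouring bases in each sequence paired a purine (A or G) with a pyrimidine (U or C). The 10 relatives themselves had 0 counts in both libraries. For assigned reads of each gene at 0, a limit of 3 counts was used. It is 0.715 CPM (counts on the gene's strand, scaled to a shared sum) in replicate 1 and 0.789 CPM in replicate 2. Reads of the relatives that matched several places would not be in these counts.

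The hairpins of the cluster alternated in the same way. In the median member 82.6% of neighbouring bases paired a purine with a pyrimidine, beside 44.0% in the median hairpin outside the cluster. The run TGTGTG on the gene's strand was present in 110 of the 119 hairpins (92.4%), beside 12.4% of the 2083 miRNA hairpins outside the cluster. Its reverse complement CACACA was present in 99 (83.2%), beside 8.31% outside. A match to these letters is a description of the sequence only.

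Reads assigned to a single gene on its own strand, called sense counts, totalled 4196577 in replicate 1 and 3801738 in replicate 2. Reads that matched several places, 38.1% and 42.3% of all reads, were given to no gene, and how many of them came from this cluster cannot be read from the tables. The cardiomyocyte miRNA genes Mir208a, Mir208b and Mir499 together held 13054 and 8858 CPM, so that the defining miRNAs of the labelled tissue were present. Marker miRNA genes of other cells were present too: the endothelial gene Mir126a held 109199 and 49330 CPM, 2 smooth muscle genes together 48576 and 79468 CPM, 4 white blood cell genes 1478 and 1542 CPM, and 3 red blood cell genes 493 and 400 CPM. The liver gene Mir122 held 309 and 105 CPM, 8 pluripotent cell genes 40.5 and 47.1 CPM, and 6 neuron genes 0.238 and 22.1 CPM with all 3 Mir124a genes at 0. The cell type in which the cluster is expressed was not tested, and in whole tissue fewer cells of a type and less RNA per cell cannot be told apart.

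Only a few hairpins of the cluster carried assigned reads. The members together had 5835 sense counts in replicate 1 and 6457 in replicate 2, which is 0.139% and 0.170% of all sense counts (95% Wilson intervals of 0.136% to 0.143% and of 0.166% to 0.174%). The mean share was 0.154% ± 0.022 (SD, n = 2). Of all reads, those given to no gene included, the members held 0.0608% and 0.0695%. Of the 119 members, 103 had 0 counts in both libraries, 7 had 1 to 6 counts over both, and 9 had 10 or more. Over all 2202 miRNA genes, 33.8% had at least 1 count and 20.0% had 10 or more, beside 13.4% and 7.56% of the members. For assigned reads of each of the 103 members at 0 counts, the limit of 3 counts is 0.715 CPM in replicate 1 and 0.789 CPM in replicate 2. The 95% Wilson intervals of 0 counts reach higher, to 0.915 and 1.01 CPM. No member had a read on the opposite strand.

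By assigned reads, other imprinted miRNA genes stood above and below the cluster. In 54 of the 119 members, every 20-base stretch is also held by another annotated miRNA hairpin. Reads that match several hairpins are not in these counts, so the order is not one of mature miRNA levels. The Dlk1-Dio3 region of chromosome 12 held 2.48% and 2.65% of sense counts, with reads in 56 of its 66 miRNA genes. Mir335 of the paternally expressed gene Mest held 2.52% and 4.13%, so that both were above the cluster in each library. Mir298 and Mir296 of the Gnas locus held 0.413% and 0.172% in replicate 1 and 0.168% and 0.0926% in replicate 2, above the cluster in replicate 1 and below it in replicate 2. Mir483 of Igf2 held 0.136% and 0.0930%, and Mir675 of H19 held 9.06 and 21.6 CPM, both below the cluster in each library. Counting error alone could give 2 of these orders. For Mir298 in replicate 2 the 95% intervals overlapped, at 0.164% to 0.172% beside 0.166% to 0.174% for the cluster. For Mir483 in replicate 1 they overlapped too, at 0.133% to 0.140% beside 0.136% to 0.143% for the cluster.

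The members with reads stood toward both ends of the array. It was divided into 3 stretches from the counts themselves, at Mir467c and Mir467e, the members with reads on either side of the widest run of members at 0, so the empty middle follows from how it was drawn. The 17 members from the start of the array to Mir467c, 8.74 kb in all, held 498 and 837 counts, or 8.53% and 13.0% of the cluster. The 30 members from Mir467e to the end, 12.6 kb in all, held 5337 and 5620 counts, or 91.5% and 87.0%. Between them lay 72 members over 30.6 kb, from Mir466b-1 at 10474219 to Gm26398 at 10504773, which are the members at 0 that drew the limits. This middle is a tandem array: its 11 Mir467a and Mir467b hairpins started 2454.5 bases apart in the median, and 9 of the 10 gaps between them were 2413 to 2470 bases. It holds 10 Mir467a, 8 Mir466b and 11 of the 12 Mir669a genes. All 12 Mir669a and all 10 Mir467a genes had 0 counts in both libraries.

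**Figure D1:**
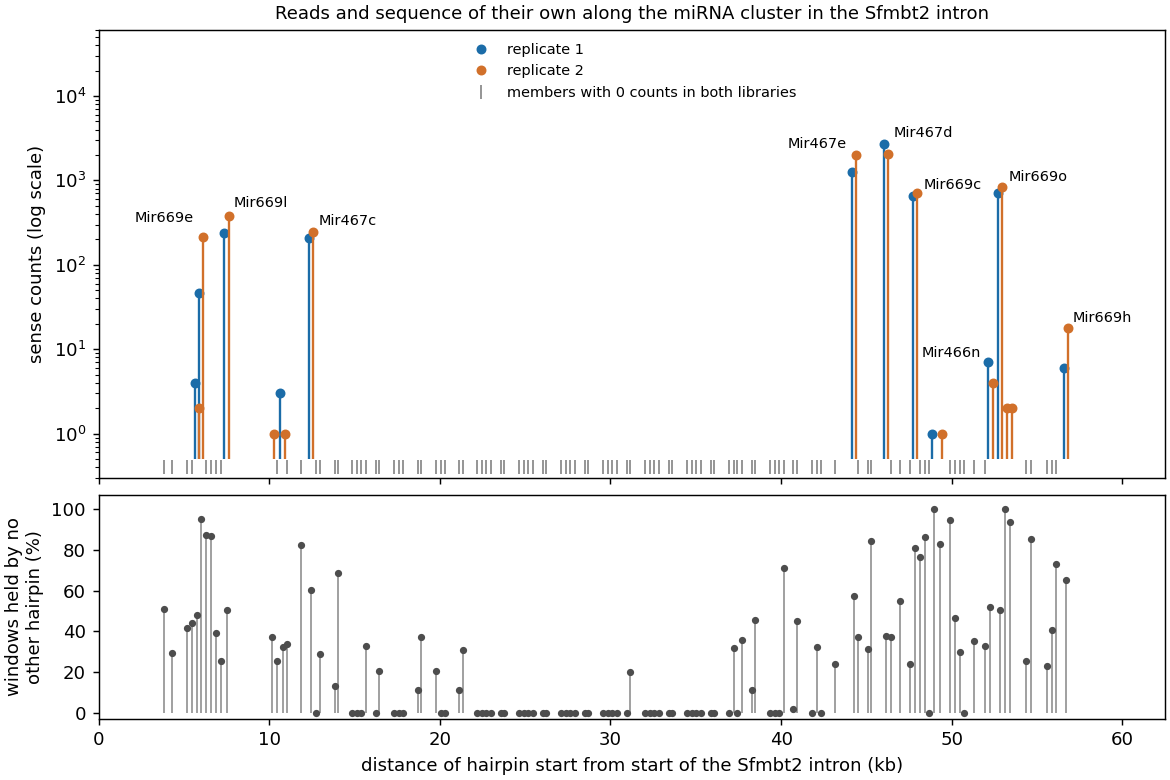
Position along the Sfmbt2 intron (kb from its first base) of each of the 119 hairpins. The upper plot gives sense counts on a log scale for replicate 1 (blue) and replicate 2 (orange), drawn side by side, with grey ticks for the 103 members at 0, and the lower plot gives the share of 20-base windows that no other annotated hairpin holds. Reads stand at both ends, where windows of a hairpin's own are frequent, and are missing from the 72 members between.

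Sequence that a hairpin shares with no other was then described over the same 3 stretches. Each hairpin was cut into all its 20-base windows, and a window was called its own if no other annotated miRNA hairpin held it on either strand. Of the 72 middle members 52 had no window of their own, and the median of the longest run shared with another hairpin was 87 bases. At the 5′ end 0 of 17 and at the 3′ end 2 of 30 had none, with median shared runs of 51 and 45 bases. Exact copies were common: 47 members fell into 16 groups of identical hairpins, 46 of them in the middle. The largest groups were 9 identical Mir669a hairpins (Mir669a-4 to Mir669a-12) and 7 identical hairpins made up of 6 Mir467a copies and Gm25022.

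Within the cluster, the hairpins with reads all had sequence of their own, and many hairpins with such sequence had no reads. The members with reads were 16. None of the 54 members without such a window had a read, and none of the 11 with up to 25% of windows their own did. Of the 29 members with over 25% and up to 50%, 4 had reads, and of the 25 with over 50%, 12 did (48.0%). Outside the cluster 46.4% of 1460 genes with over 50% had reads, against 9.51% of 284 genes with no such window. Between these, reads were present in 3.82% of 157 genes with up to 25% and in 9.89% of 182 genes with over 25% and up to 50%. A read that lies wholly in a shared run can match several places and is then not in these counts. The values of near-identical hairpins are therefore uncertain and are not levels of their mature miRNAs. Windows compare annotated hairpins, not places in the genome, and 27 of the 284 outside genes with no such window had reads. Copies outside annotated hairpins were not searched.

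The other 13 members with over 50% of windows their own had 0 counts in both libraries. They were 10 Gm genes and 3 named genes. Windows were counted over the whole hairpin, and the place of each mature miRNA within it was not known. Whether reads of these mature miRNAs could be assigned was therefore not tested. The named genes, picked out here after their values were seen, were Mir669b with 68 of 78 windows its own, Mir466l with 87 of 102 and Mir669i with 79 of 108. In the middle, which was drawn from members at 0, 20 members had windows of their own. Of these, 2 had over 50% and are among the 13.

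**Figure D2:**
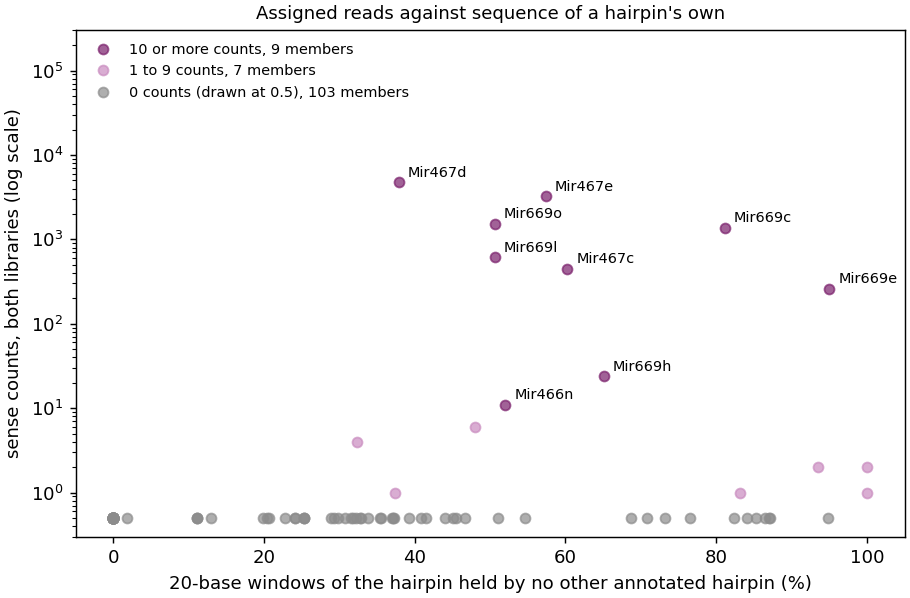
Sense counts over both libraries (log scale, members at 0 drawn at 0.5) against the share of a hairpin's 20-base windows that no other annotated hairpin holds, for the 119 members. The 9 members with 10 or more counts lie between 37.9% and 95%, and members at 0 extend from 0% to 94.8%.

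The Mir467 family gave most of the assigned reads. Its 3 members with reads held 71.5% and 66.3% of the cluster (95% Wilson intervals of 70.3% to 72.6% and of 65.1% to 67.4%). Mir669 genes, 7 with reads, held 28.3% (27.2 to 29.5) and 33.5% (32.4 to 34.7). The 23 Mir466 genes together had 7 and 8 counts and the 5 Mir297 genes 3 and 1. At least 1 window of their own was held by 14 Mir466 genes and by all 5 Mir297 genes. The share of such windows ran from 0% to 100% over the Mir466 genes and from 22.8% to 46.7% over the Mir297 genes. Whether this bears on their counts was not tested. The 48 genes with only a Gm number had 1 count in each library.

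Mir467d (chromosome 2, 10507630 to 10507714) was the most abundant member. It had 2710 counts in replicate 1 and 2037 in replicate 2, or 646 and 536 CPM (mean 591 ± 77.8, SD, n = 2), and ranked 95 among all 2202 genes by mean CPM. It alone held 46.4% and 31.5% of the cluster's counts. Only 25 of its 66 windows were its own, 19 of 33 on the 5′ side of the hairpin and 6 of 33 on the 3′ side. Its longest shared run of 60 bases is found in 9 of the 10 Mir467a hairpins and in Gm25022, all at 0 counts.

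Mir467e (10505721 to 10505807), which starts 1.91 kb before Mir467d, had 1256 and 2002 counts, or 299 and 527 CPM (413 ± 161). It was the lower of the pair in replicate 1, where Mir467d had 2.16 times its counts (95% interval 2.02 to 2.31), and level with it in replicate 2, where the ratio was 1.02 (0.957 to 1.08). The mean log2 ratio of Mir467d to Mir467e was 0.57 ± 0.77, so their order does not exceed the spread between the libraries. Mir467c (10473931 to 10474027), at the 5′ end of the array, had 205 and 242 counts, or 48.8 and 63.7 CPM. It shares a run of 48 bases with Mir467e, the longest of each.

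The Mir669 genes covered a wide range of levels. Mir669o (10514300 to 10514395) had 703 and 837 counts, or 168 and 220 CPM (194 ± 37.2). Mir669c (10509296 to 10509404) had 654 and 717 counts, or 156 and 189 CPM (172 ± 23.2). Mir669o was thus the higher in each library, by 1.07-fold (95% interval 0.966 to 1.20) and 1.17-fold (1.06 to 1.29), a difference that counting error alone could give in replicate 1. Both stand at the 3′ end. Mir669o shares its longest run, 38 bases, with 11 Mir669a hairpins and Gm26092, whereas Mir669c shares 36 bases with Mir669a-3 alone.

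At the 5′ end, Mir669l (10468971 to 10469068) had 240 and 376 counts, or 57.2 and 98.9 CPM. Mir669e (10467495 to 10467613) had 46 and 215 counts, or 11.0 and 56.6 CPM, and was the member whose libraries lay furthest apart. It also had the most sequence of its own among the members with 10 or more counts, at 95 of 100 windows. Mir669h (10518155 to 10518279), the last hairpin of the array, had 6 and 18 counts, and Mir466n (10513741 to 10513834), the only Mir466 gene with 10 or more counts over both libraries, had 7 and 4.

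Ordered by mean CPM the 9 genes were Mir467d, Mir467e, Mir669o, Mir669c, Mir669l, Mir467c, Mir669e, Mir669h and Mir466n. The order was the same per 100 bases of hairpin. Of the 8 neighbouring pairs in this order, 5 differed by more than the SD of their log2 ratio over the libraries. The pairs that did not were Mir467d with Mir467e, Mir467c with Mir669e, and Mir669h with Mir466n, and the last changed its order between the libraries. The pairs were formed by sorting the same libraries, whose SD is a weak bar, so this comparison cannot decide the order. Among the 5, counting error alone could give the replicate 1 difference of Mir669o with Mir669c (interval of the ratio 0.966 to 1.20). The same held for Mir669l with Mir467c (0.972 to 1.41).

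**Figure D3:**
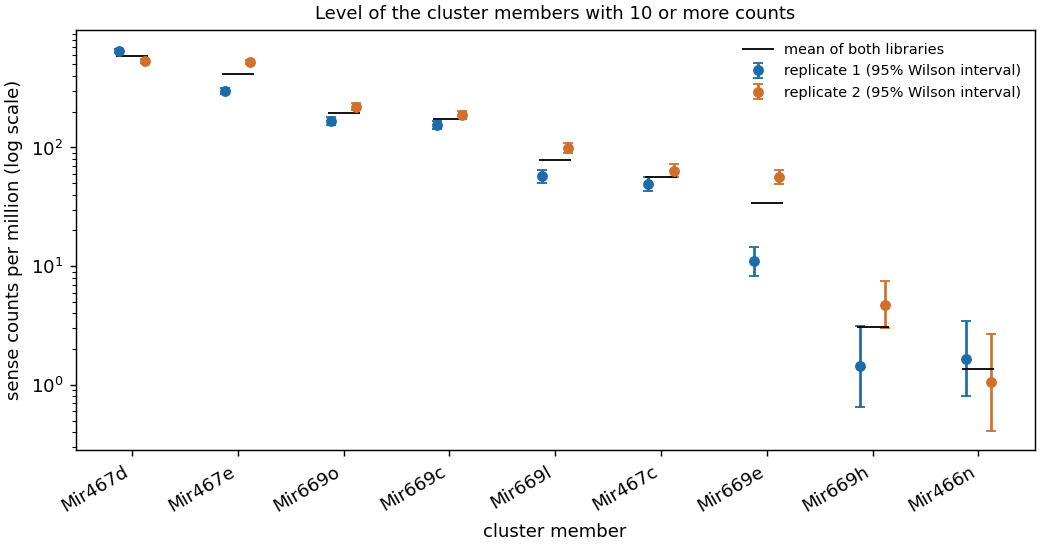
CPM (log scale) of the 9 members with 10 or more counts over both libraries, in replicate 1 (blue) and replicate 2 (orange). Error bars are 95% Wilson intervals, which cover counting error only, and the black line is the mean. Mir467d and Mir466n are the 2 members that stand lower in replicate 2 on this scale, and Mir467d stands slightly higher there with DESeq2 scaling.

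Some hairpins less than 1 kb apart in the same intron, picked out here after their values were seen, differed greatly in reads. Others did not, among them Mir466g and Mir466h with 0 and 2 counts each. Mir466n starts 559 bases before Mir669o and had 7 and 4 counts beside 703 and 837, so that Mir669o had 100 times its counts in replicate 1 (95% interval 47.7 to 211) and 209 times in the other library (78.4 to 559). The shares of windows of their own were close, at 39 of 75 for Mir466n and 39 of 77 for Mir669o. Mir466n has 5 of 38 on its 5′ side and 34 of 37 on its 3′ side. Mir669o has 24 of 39 and 15 of 38. Mir669f starts 266 bases before Mir669e and had 4 and 2 counts beside 46 and 215. Here the windows of their own differed, at 49 of 102 for Mir669f and 95 of 100 for Mir669e. Mir466g starts 295 bases after Mir669o and had 0 and 2 counts. All of its 61 windows were its own.

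Between the libraries, 8 of the 9 tested members differed by a two-sided exact test after Fisher, adjusted by Benjamini and Hochberg's method over all 441 genes with 10 or more counts, where 56.9% of genes differed at an adjusted p under 0.05. This test compares 2 libraries and takes counting error as the only error. Of the 8, 7 were higher in replicate 2, where 20.4% of all tested genes were called higher, and Mir467d was lower, where 36.5% were called lower. The median log2 ratio of replicate 2 over replicate 1 was 0.39 over the 9 members and -0.26 over all tested genes. The median of all tested genes moved to -0.06 with TMM scaling, edgeR's trimmed mean of M-values, and to -0.00015 with DESeq2 scaling. That of the members was then 0.64 and 0.70. DESeq2 scaling is itself set from the median ratio of the genes. Both scalings shift members and other genes nearly alike, so they do not test the gap between the medians.

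Mir669e had the widest gap, with a log2 ratio of 2.27 (adjusted p = 1.61e-30, Fisher's exact test). Mir669h followed at 1.24 (adjusted p = 0.0146), from few counts, and its ratio rests on the pseudocount: with 10 CPM added in place of 1 it was 0.366, below Mir467e (0.795), Mir669l (0.697) and Mir669o (0.375). Mir467e and Mir669l had similar ratios of 0.81 (adjusted p = 2.26e-56) and 0.78 (adjusted p = 7.21e-11), at opposite ends of the array. Mir669o, Mir467c and Mir669c had smaller ratios of 0.39, 0.38 and 0.27, with adjusted p of 2.64e-07, 0.0117 and 0.000975.

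Mir467d had a log2 ratio of -0.27 (adjusted p = 5.46e-10, Fisher's exact test), but this call and its direction rested on scaling by total counts. TMM scaling shifted the log2 ratio before the pseudocount by 0.24 and DESeq2 scaling by 0.31. With these Mir467d stood at -0.02 (adjusted p = 0.684) and 0.04 (adjusted p = 0.424), and the 7 higher members stayed called, beside 54.4% of genes called under each scaling and 28.1% and 30.8% called higher. The split over all tested genes moved from 90 higher and 161 lower to 124 and 116 with TMM and 136 and 104 with DESeq2. Mir466n, at -0.38, did not pass the test (adjusted p = 0.655). With counts taken without regard to strand, which changes the library totals and not the members' counts, Mir669c and Mir467c no longer passed, at adjusted p of 0.0634 and 0.0843. The test then called 6 of 9 members beside 57.2% of genes. With no count minimum it called 8 of 16 members beside 32% of genes, and with 10 or more counts in each library 7 of 7 beside 68.3%.

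edgeR's exact test, which estimates the spread from the same 2 libraries, called 0 of the 9 members at an adjusted p under 0.05, beside 0.454% of all tested genes. Mir669e was the single member with an unadjusted p under 0.05 (p = 0.00356, adjusted p = 0.218, edgeR's exact test).

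**Figure D4:**
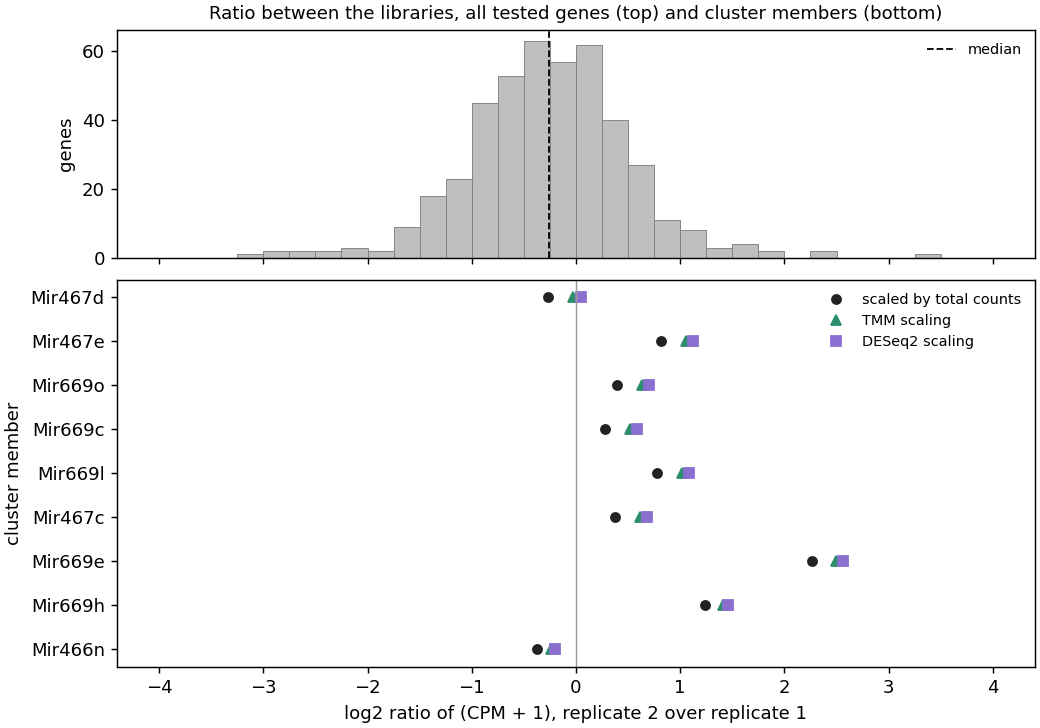
Log2 ratios of CPM + 1, replicate 2 over replicate 1. The upper plot is a histogram of the 441 tested genes with their median (dashed, -0.26), and the lower plot gives the 9 tested members scaled by total counts (circles), TMM (triangles) and DESeq2 (squares). Mir669e stands furthest right, and Mir467d crosses 0 with DESeq2 scaling.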

How the data were processed

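Raw read counts per miRNA gene were deposited by the authors, 1 table per library. The alignment was to mm10 and used the genes of GENCODE M21, per the file headers of the accompanying description files. No aligner is named in those sources. Loss of reads from CAST/EiJ alleles during alignment was not tested. Total RNA was the input and the stated size range was under 30, per the labels. Counts on the gene's strand (column 3) were used. Lines naming no gene, 56.2% and 59.1% of reads in replicates 1 and 2, stayed out of library sizes and tests.

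CPM divide these counts by their sum in the library, and log2 ratios use CPM + 1. Genes with 10 or more counts over both libraries were tested with Fisher's exact test (scipy 1.17.1), because with 1 library per animal a quasi-likelihood fit has no spread within groups to estimate. Fisher's test was checked on simulated data that held counting error only, the error it assumes. Its behaviour at the spread between these libraries was not checked. edgeR 4.0.16 gave TMM factors and the exact test, and DESeq2 1.42.0 gave size factors. Windows come from GENCODE M21 hairpin sequences. Every member with 10 or more counts is named. Intervals cover counting error only, since amplified reads are not independent molecules. Members and lists were chosen with earlier results of these data known.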

Additional observations from a re-analysis of the deposited data

How the results depend on the processing

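The cluster's mean share of 0.154% became 0.200% with counts taken without regard to strand, 0.0652% with all reads in the denominator and 0.0954% without Mir467d. It ran from 0.139% to 0.170% with 1 library left out. The 9 members with 10 or more counts became 16 with a minimum of 1 count, and 7 to 8 with 1 library left out. Left-out libraries moved the Mir467 share from 66.3% to 71.5% and the Mir669 share from 28.3% to 33.5%. The median log2 ratio of the members was 0.64 with TMM, 0.70 with DESeq2 scaling and 0.28 without regard to strand, positive in each. Over all tested genes it was -0.06, -0.00015 and -0.38. TMM and DESeq2 scaling shift members and other genes nearly alike, so they do not test the gap between these medians. A pseudocount of 10 CPM took the log2 ratio of Mir669h from 1.24 to 0.37 and that of Mir669e from 2.27 to 1.67. The log2 ratio of Mir467d turned to 0.043 with DESeq2 scaling. edgeR's exact test called 0 of 9 members, with 1 at an unadjusted p under 0.05, and 2 of 441 genes (Mir9-3 and Mir26a-1), with 25 unadjusted. The other counts of called members ran from 6 to 8, and windows of 18 or 22 bases, an alternative chosen after seeing the data, again left 54 members with none of their own. The order per hairpin length was also added after seeing the data.

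No paired analysis was possible because the libraries form a single group. With 1 library for each of 2 animals, counting error is the only error the main test holds. For the assigned reads of a gene at 0 counts, the limit of 3 counts is 0.715 CPM and 0.789 CPM in replicates 1 and 2. The 95% Wilson intervals of 0 counts reach 0.915 and 1.01 CPM. For hairpins with no sequence of their own the counts set no limit on the mature miRNA. Where a hairpin shares part of its sequence, whether such a limit holds for its mature miRNA was not tested.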
